A study of Mus musculus with 4 samples.

Results

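The genes described here were the suppressor of cytokine signalling (SOCS) family and the transcription factors STAT5A and STAT5B in the lens of young mice. They were taken by gene name, 10 of the 56748 genes in the deposited table, as *Socs1* to *Socs7*, *Cish*, *Stat5a* and *Stat5b*. *Socs2* had already been called in earlier work on these same libraries, so its values are a description with no test. RNA sequencing of polyA RNA was done on whole lenses of mice aged 10 to 12 days, in 2 mutant and 2 control libraries. Mutant lenses were labelled Fsp1-cre;Pdgfrb+/D849V. They carried 1 conditional allele of the platelet-derived growth factor receptor beta, with the activating D849V change at its own locus, which needs Cre to be expressed. The study describes Cre reporter activity in lens epithelium at ages later than those sampled here, and assumes that the mutant receptor is expressed once Cre is induced. Whether it was expressed in these lenses was not tested. Control lenses were labelled Fsp1-cre;Pdgfrb+/+, but the study's methods state that the control pools also held Cre-negative Pdgfrb+/+ and Pdgfrb+/D849V mice, so genotype and presence of Cre cannot be told apart. Each library came from the lenses of several mice, *Fsp1-cre* is driven by the promoter of the S100a4 gene, and neither allele was lens-specific.

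Cytokines and growth hormone bind receptors that carry Janus kinases (JAKs), and the kinases phosphorylate STAT5, which then enters the nucleus and binds DNA. CISH and several SOCS proteins are feedback inhibitors: STAT proteins switch on their genes. The proteins bind the receptor or the JAK and, through the SOCS box, bring in a ubiquitin ligase. The study describes SOCS2 as able to raise or lower STAT5 signalling, depending on its level. SOCS2 and CISH act mainly on growth hormone and other STAT5-coupled receptors, while SOCS1 and SOCS3 restrain interferon and interleukin-6 signalling. In the lens, an epithelial monolayer covers fibre cells that fill with crystallins.

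STAT dimers recognise the gamma-activated sequence (GAS), spelled TTC, then any 3 bases, then GAA, which is its own reverse complement, so that a match on one strand is also a match on the other. RefSeq promoter windows from 250 bases before to 50 bases after an annotated start (GRCm38.p6) were matched for 6 of the 10 members by symbol, in 8 windows. No window was matched for *Socs2*, *Socs5*, *Socs6* or *Socs7*, so their promoters were not searched. The motif was found in the windows of *Cish* and *Socs3*, that is in 2 of the 8 windows, and in 8.30% of all 32851 windows. *Cish* held 2 matches within the 20 bases from the annotated start on, and 150 of all windows (0.457%) held 2 or more. *Socs3* held 1 match, 154 bases before its start. Both are shown because, of the 6 members searched, only they carry the motif, with the matches in capitals. The stretches are from *Cish* at chr9:107296409-107296678 on the plus strand and *Socs3* at chr11:117969367-117969616 on the minus strand.
Cish: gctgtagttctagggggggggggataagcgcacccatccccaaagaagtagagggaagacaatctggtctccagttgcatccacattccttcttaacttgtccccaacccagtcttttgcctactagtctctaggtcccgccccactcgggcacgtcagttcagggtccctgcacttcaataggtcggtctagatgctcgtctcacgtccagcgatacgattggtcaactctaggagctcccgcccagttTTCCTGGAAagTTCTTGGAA
Socs3: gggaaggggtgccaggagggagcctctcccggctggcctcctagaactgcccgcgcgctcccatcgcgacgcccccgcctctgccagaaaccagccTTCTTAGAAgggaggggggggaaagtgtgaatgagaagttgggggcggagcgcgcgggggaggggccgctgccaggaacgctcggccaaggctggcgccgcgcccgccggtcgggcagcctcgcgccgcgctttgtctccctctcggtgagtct
These matches describe letters of the reference sequence and say nothing about occupancy in the lens. With 4 bases between TTC and GAA, no member window held a match and 6.95% of all windows did.

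The deposited values were FPKM, which are fragments scaled to the length of the gene and a denominator for the library. All of them were whole multiples of the value of 1 read to within 0.01 of a read, so reads per gene could be recovered, between 18561682 and 18878768 in a library. Crystallin genes took 58.6% to 62.9% of these reads, and the lens fibre marker *Cryaa* stood at 66165 to 74239 FPKM, while the fibre marker *Lim2* was listed at 0 in all libraries. *Xist* was at 13.1 FPKM in mutant replicate 2 and 15.6 in control replicate 1, against 7.62 in mutant replicate 1 and 5.56 in control replicate 2, so this marker of female tissue differed between the pools of each genotype. In pooled tissue, fewer cells of a type and less RNA per cell cannot be told apart. The p-values below measure only the spread between these pools.

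All 10 members had reads in every library. Their FPKM, which is a level per length, spanned a wide range, and *Stat5b* was the highest member in both groups, at 6.90 ± 0.57 in control and 6.75 ± 1.22 in mutant lenses (mean ± SD, n = 2 libraries each). Among the 15997 genes that passed the filter on low values (mean over 4 libraries not under 0.1 FPKM), *Stat5b* lay at the 86.2 percentile of control means. In control lenses the order below it was *Socs7* (1.97 FPKM), *Socs3* (1.74), *Stat5a* (1.36), *Socs5* (1.31), *Socs4* (1.13), *Socs6* (0.655), *Socs1* (0.226), *Socs2* (0.0631) and *Cish* (0.0527). The libraries of *Socs7* and *Socs3* overlapped, as did those of *Stat5a* and *Socs5* and those of *Socs2* and *Cish*, and the other neighbours in this order did not. In mutant lenses *Socs3* (1.51), *Socs7* (1.44), *Socs5* (1.37), *Stat5a* (1.05) and *Socs4* (0.987) each overlapped the next, followed without overlap by *Socs6* (0.699) and *Socs2* (0.359), and then by *Cish* (0.185) and *Socs1* (0.173), which overlapped each other. *Socs2* lay at the 3.04 percentile of control means and the 25.6 percentile of mutant means among these genes. It was chosen on this contrast and passed the filter only through the mutant libraries, so nothing is read from that shift.

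**Figure D1:**
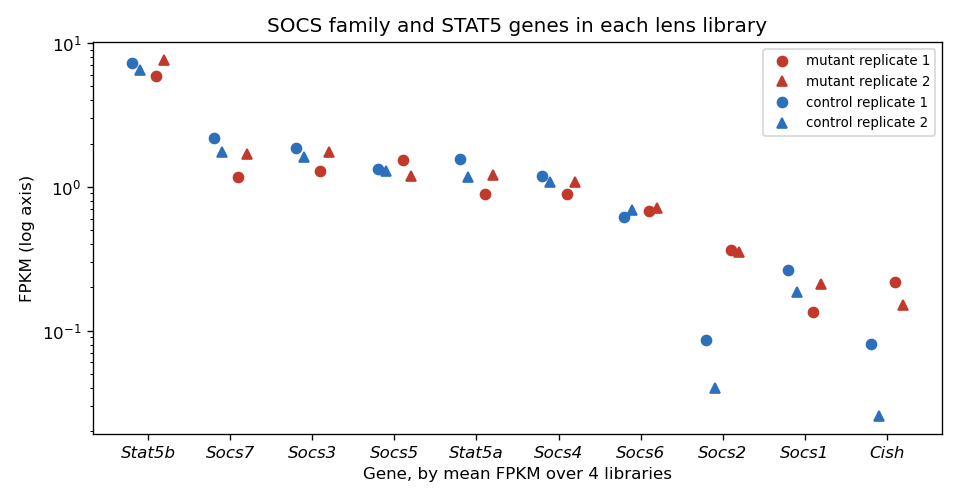
FPKM of each member (log axis) in each of the 4 libraries, with control libraries in blue, mutant libraries in red, circles for replicate 1 and triangles for replicate 2. *Stat5b* lies at 5.88 to 7.61 FPKM, and the groups stand apart for *Socs2* and *Cish*, where both mutant libraries are higher, and for *Socs7*, where both are lower. Groups stand apart for 36.6% of all genes tested. *Socs2* was chosen on this contrast, and the gap of *Socs7* was gone with equal totals of recovered reads.

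*Socs2*, the inhibitor best known for limiting growth hormone signalling, had 62 and 66 reads in mutant replicates 1 and 2 and 16 and 7 reads in control replicates 1 and 2. In FPKM these were 0.365 and 0.354 against 0.0863 and 0.0398. Both mutant libraries were above both control libraries, and the mutant libraries lay closer together than the control libraries did. The mean was 0.359 ± 0.0079 FPKM in mutant and 0.0631 ± 0.0329 in control lenses, a ratio of 5.70 (mean ± SD, n = 2). On the log2(FPKM + 0.1) scale, which understates the change of low genes, the difference was 1.51, and it ran from 1.30 to 1.72 as single libraries were left out. Counting intervals (exact Poisson, 95%) were 47.5 to 79.5 and 51.0 to 84.0 unscaled reads in the mutant libraries. In the control libraries they were 9.15 to 26.0 and 2.81 to 14.4. The intervals cover counting error only, not the spread between pools, and are no test between the groups. Between pools of like *Xist* level, the log2 difference was 1.73 in the lower pair and 1.28 in the higher pair.

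*Socs2* (ENSMUSG00000020027) is listed at chr10:95221224-95253042 on the minus strand of mm39. Its nearest tested neighbours, *Cradd* at 61229 bases and *Mrpl42* at 63625 bases, had log2 fold changes of -0.27 and 0.04 (limma, adjusted p = 0.838 and 0.958). Of the 31-base words in its annotated transcripts, 18.8% also occur in other genes, nearly all of them in the pseudogene *Gm9847*. That pseudogene had 3 and 5 reads in mutant against 0 and 1 in control libraries, and how reads from the shared words were divided between *Socs2* and *Gm9847* was not tested. Among 8378 genes whose mean reached 1 FPKM, the patterns over the 4 libraries nearest to that of *Socs2* were those of the pseudogene *Gm12854*, *Pold4*, a subunit of DNA polymerase delta, and *Mir8094*, at Euclidean distances of 0.363, 0.365 and 0.411 of centred log2 values. *Pold4* had 42 and 50 reads in mutant and 22 and 17 in control libraries. *Gm12854* had at most 18 reads in a library and *Mir8094* at most 4.

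*Cish*, the founding member of the family and a feedback target of STAT5, is listed at chr9:107173225-107179983 on the plus strand of mm39. Mutant replicates 1 and 2 held 25 and 19 of its reads and control replicates 1 and 2 held 10 and 3, or 0.218 and 0.151 against 0.0801 and 0.0254 FPKM. Both mutant libraries were above both control libraries, with mutant replicate 2 nearest to control replicate 1. The ratio of means was 3.50, and the log2 difference of 0.91 (SE 0.55) did not pass the test over all genes (limma, adjusted p = 0.811). On the recovered reads, limma's voom gave 1.87 (SE 0.68, unadjusted p = 0.0115, adjusted p = 0.488). Pairs of like *Xist* level gave 1.35 in the lower and 0.48 in the higher pair. *Cish* and *Socs2* passed the filter on low values only through the mutant libraries, since their control means lie under 0.1 FPKM, so neither these estimates nor the tests of *Cish* are given as support for a difference. An antisense transcript over *Cish*, *Gm17041*, had 0 reads in all libraries, and whether counting used strand is not given in the sources used here.

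**Figure D2:**
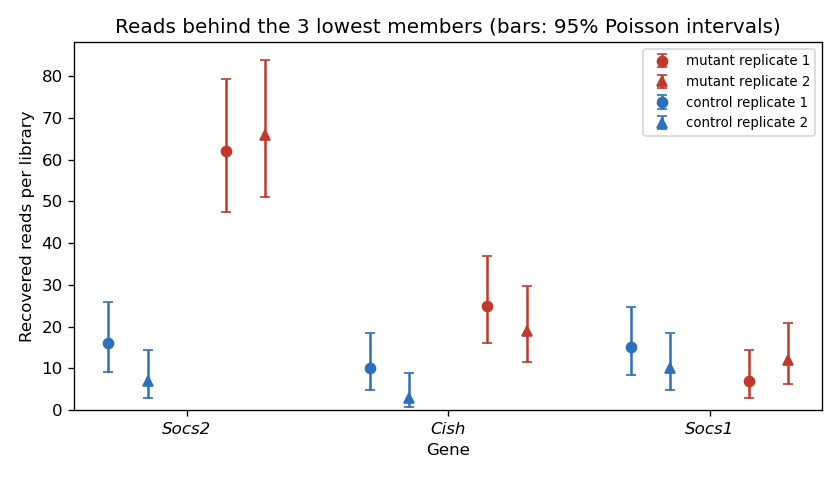
Recovered reads of the 3 lowest members in each library, with control libraries in blue, mutant libraries in red and bars for exact 95% Poisson intervals. *Socs2* has 62 and 66 reads in mutant against 16 and 7 in control lenses, *Cish* 25 and 19 against 10 and 3, and *Socs1* 7 and 12 against 15 and 10.

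*Socs1*, which blocks JAKs directly and restrains interferon signalling, had 7 and 12 reads in mutant against 15 and 10 in control libraries, and the groups overlapped (log2 difference -0.26, limma adjusted p = 0.902). *Socs3*, which limits signalling through the interleukin-6 receptor subunit gp130, stood at 1.28 and 1.75 FPKM in mutant and 1.87 and 1.61 in control lenses. Its lowest value was in mutant replicate 1 and its groups overlapped, with a log2 difference of -0.20 (SE 0.20, limma adjusted p = 0.832).

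*Socs4* and *Socs5*, related members with long amino-terminal regions that act on the epidermal growth factor receptor, gave no separation of the groups. *Socs4* stood at 0.897 and 1.08 FPKM in mutant and 1.18 and 1.07 in control lenses (log2 difference -0.18, limma adjusted p = 0.832). *Socs5* stood at 1.54 and 1.19 against 1.33 and 1.29 (0.05, adjusted p = 0.964 in limma). *Socs6* and *Socs7* are the members that bind insulin receptor substrates. *Socs6* was at 0.682 and 0.716 FPKM in mutant and 0.616 and 0.693 in control lenses (0.08, limma adjusted p = 0.941). *Socs7* was at 1.18 and 1.70 FPKM in mutant and 2.19 and 1.74 in control lenses, with 155 and 245 against 315 and 237 reads. Both mutant libraries of *Socs7* were below both control libraries, by a narrow margin between mutant replicate 2 and control replicate 2 that was gone with libraries rescaled to equal totals of recovered reads, and its log2 difference of -0.44 (SE 0.22) did not pass over all genes (limma, adjusted p = 0.811). On recovered reads it was -0.46 (voom, unadjusted p = 0.0173, adjusted p = 0.561). The limma estimate was -0.20 without mutant replicate 1, -0.69 without mutant replicate 2 and -0.28 without control replicate 1.

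*Stat5a* stood at 0.889 and 1.21 FPKM in mutant and 1.56 and 1.17 in control lenses, with 113 and 169 reads against 216 and 154. The groups overlapped, since mutant replicate 2 was above control replicate 2, and the log2 difference was -0.35 (SE 0.23, limma adjusted p = 0.811). It was -0.15 without mutant replicate 1, -0.16 without control replicate 1, -0.55 without mutant replicate 2 and -0.54 without control replicate 2. *Stat5b* stood at 5.88 and 7.61 FPKM in mutant and 7.30 and 6.49 in control lenses, with overlapping groups and a log2 difference of -0.04 (SE 0.16, limma adjusted p = 0.966). The level of *Stat5b* was several times that of *Stat5a* in every library. The paralogs share 836 31-base words, 20.2% of those of *Stat5a* and 15.2% of those of *Stat5b*, so reads from those stretches could be split between them in an unknown way. *Stat5a* also overlaps *Stat3* by 72 bases of their gene bounds.

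Set against the whole table, 0 of the 9 members other than *Socs2* passed limma at an adjusted p under 0.05, where 0.0375% of all 15997 genes did, and 0 of the 9 did at an unadjusted p under 0.05, where 6.31% of all genes did. On recovered reads, voom called 0 of the 9 at an adjusted p under 0.05, against 0.0875% of all genes, and counted 2, *Cish* and *Socs7*, at an unadjusted p under 0.05, against 7.43% of all genes. Of these, *Cish* was admitted by the mutant libraries, where it is high. Groups did not overlap for *Socs2*, *Cish* and *Socs7*, 3 of the 10 members, and for 36.6% of all genes. *Socs2* and *Cish* had mutant above control (18.2% of all genes) and *Socs7* had mutant below (18.3%). Nothing is read from the place of *Socs2* in these counts, since it was chosen on this contrast. Estimates were above 0 for 4 members and below 0 for 6, with a median log2 difference of -0.11 against 0.0041 over all genes tested. That median was -0.02 without mutant replicate 1 and -0.04 without control replicate 1, each with 5 members above 0 and 5 below, -0.26 without mutant replicate 2 and -0.18 without control replicate 2.

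**Figure D3:**
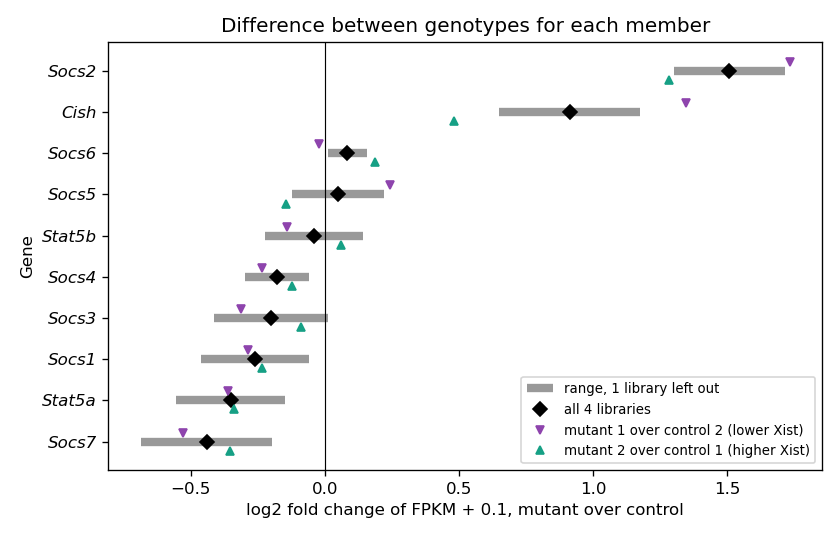
Log2 fold change of FPKM + 0.1, mutant over control, for each member, with diamonds for all 4 libraries, grey bars for the range when 1 library is left out and triangles for the 2 pairs of pools with like *Xist* level. *Socs2* stands at 1.51 with a range of 1.30 to 1.72, *Cish* at 0.91, and the other 8 members lie between -0.44 and 0.08.

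Levels per length depend on the length used. The deposited length of *Socs2* is 9531 bases, while its longest protein-coding transcript in the GENCODE M21 annotation has 2222 bases. With that transcript length, which was tried after the values were seen, *Socs2* would stand at 1.57 and 1.52 on the FPKM scale in mutant and 0.370 and 0.171 in control lenses. The rescaling assumes that every counted read of a gene fell within its longest coding transcript, which was not tested. *Cish* (6419 against 2850 bases), *Socs6* (11349 against 6036) and *Stat5a* (7133 against 3888) would also be higher, and 8 of the 10 members would change rank over the 4 libraries. In mutant lenses *Socs2* (1.54) would then be above *Socs7* (1.51) and below *Socs3* (1.72). The ratio between genotypes of a member is not touched by this choice, since its length is the same in every library.

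**Figure D4:**
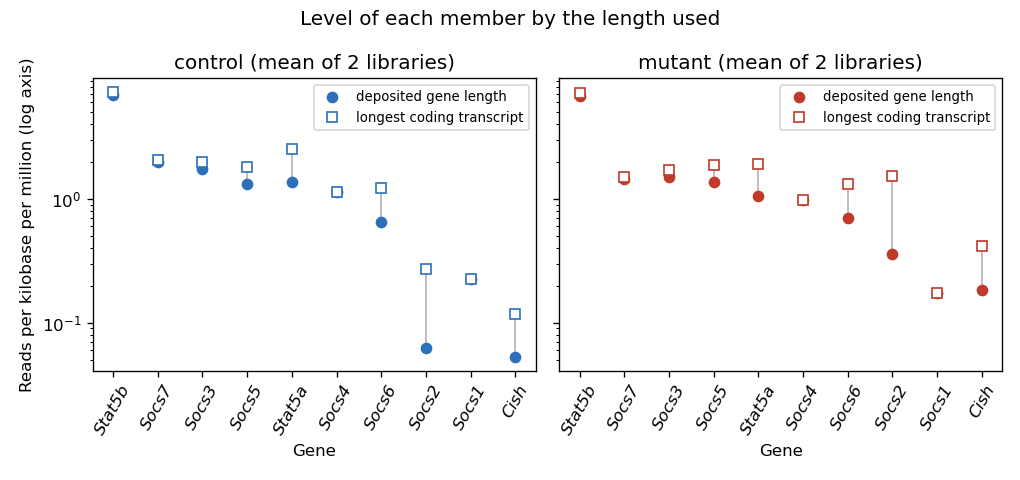
Mean level of each member in control (left) and mutant (right) lenses on a log axis, as deposited (filled circles) and with the length of the longest coding transcript (open squares). *Socs2* moves from 0.359 to 1.54 in mutant and from 0.0631 to 0.271 in control lenses, while *Stat5b* stays the highest.

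Genes upstream of the members were measured in the same fit. Of 26 receptors, 15 were tested and 0 passed at an adjusted p under 0.05 (0 also by voom, with 0 in limma and 1 in voom at an unadjusted p under 0.05), and *Prlr*, the prolactin receptor, *Il7r* and *Il5ra* were among those listed at 0. The ciliary neurotrophic factor receptor *Cntfr* was the highest, at 3.55 and 4.64 FPKM in mutant and 3.88 and 3.67 in control lenses. Groups did not overlap for 7 of the 15 receptors, against 36.6% of all genes, the largest of them *Il10rb* (0.33), *Ifngr2* (-0.28) and *Il6st*, which encodes gp130 (-0.27). *Ghr*, the growth hormone receptor, named here after its values were seen because SOCS2 acts on it, had 20 and 21 reads in mutant and 16 and 13 in control libraries, and its control mean lies under the filter. Of 21 ligands, 12 were listed at 0, growth hormone and prolactin among them, and *Il4* was the highest at 4.54 to 4.82 FPKM. *Epo*, which encodes erythropoietin, had 0 and 5 reads in mutant and 9 and 5 in control libraries.

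All 4 Janus kinases had estimates below 0, with a median log2 difference of -0.19, and none passed the test. Without control replicate 1 the median was -0.05 with 2 above and 2 below 0, and without mutant replicate 1 it was -0.12 with 1 above 0. *Jak1* (2.76 and 2.88 FPKM in mutant, 3.42 and 3.17 in control) and *Jak3* had groups that did not overlap, at -0.22 and -0.18. Both had mutant below control, a separation shown by 18.3% of all genes. *Jak2* (-0.20) and *Tyk2* (-0.07) overlapped. Of the other STAT genes, *Stat2* (0.22), which mediates interferon responses, had both mutant libraries above both control libraries, *Stat3* (-0.06) and *Stat6* (0.47) overlapped, and *Stat4* had at most 2 reads in a library. None of these passed the limma test.

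Partners and other inhibitors came next. Of 12 other inhibitors of the pathway, 11 were tested and 0 passed. Groups did not overlap for 6 of the 11, against 36.6% of all genes, among which the phosphatase *Ptpn6* (0.48), the ubiquitin ligase *Cbl* (-0.45) and the phosphatase *Ptpn11* (-0.33) had the largest differences. All 9 partners of the SOCS box ligase were tested, 0 passed, 8 had estimates above 0 and the median was 0.09. *Elob*, elongin B, which binds the SOCS box itself, was the highest at 118 and 94.2 FPKM in mutant and 84.97 and 93.8 in control lenses.

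Downstream, 22 STAT5 target genes were listed, 14 were tested and 0 passed, with a median log2 difference of -0.11. At an unadjusted p under 0.05 there were 0 in limma (6.31% of all genes) and 3 in voom (7.43%). Groups did not overlap for 1 of the 14 with mutant above control (18.2% of all genes) and for 3 with mutant below (18.3%). *Id2* was the highest, at 20.7 and 23.2 FPKM in mutant and 22.9 and 27.3 in control lenses. The cyclins *Ccnd1* (-0.54) and *Ccnd2* (-0.49) had both mutant libraries below both control libraries, and the cell cycle inhibitor *Cdkn1a* (0.50), admitted only through the mutant libraries, had both above. Without mutant replicate 1 the median was -0.04 and without control replicate 1 it was -0.05. *Igf1*, the insulin-like growth factor that growth hormone induces through STAT5, had 9 and 16 reads in mutant and 20 and 6 in control libraries, under the filter and with overlapping groups. In the IGF and PDGF receptor list, 12 of 15 genes were tested and 0 passed, with 0 in limma and 3 in voom at an unadjusted p under 0.05. *Igfbp5* was the highest gene of the list. Of the 12, 2 had both mutant libraries below both control libraries (18.3% of all genes), *Irs1* (-0.45) and *Pdgfra* (-0.28). *Pdgfrb* itself stood at 2.36 and 2.16 FPKM in mutant and 2.25 and 1.79 in control lenses, which overlapped. Of 14 interleukin-6 and STAT3 response genes, 7 were tested and 0 passed, with *Pim3* the highest and *Fos* (-0.48), *Cebpd* (0.47) and *Timp1* (0.41) the largest differences without overlap. Groups of these 7 did not overlap for 3 with mutant above control (18.2% of all genes) and for 2 with mutant below (18.3%).

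Of 23 interferon response genes, all had reads and 22 had a higher mean FPKM in mutant lenses, with *Oas1a* the exception. Of the 16 tested, 0 passed at an adjusted p under 0.05, 4 did at an unadjusted p under 0.05 in limma (6.31% of all genes) and 6 in voom (7.43%), and groups did not overlap for 9, all with mutant above control (18.2% of all genes). The summed level of the list was 24.996 and 18.1 FPKM in mutant and 11.7 and 11.8 in control lenses. *B2m*, the light chain of class I molecules, was the highest, at 10.5 and 9.68 against 5.26 and 6.43 FPKM (log2 difference 0.78, limma adjusted p = 0.370). *Ifit3* (1.96), *Gbp3* (1.22) and *Irf1* (1.03) had the largest differences without overlap. *Ifit3* and *Gbp3*, with control means of 0.0155 and 0.0962 FPKM, passed the filter only through the mutant libraries, as did *Tap1*. Both *Ifit3* and *Gbp3* stand in the count of 9 without overlap and in the counts at an unadjusted p. None of these counts is therefore given as support. The median of the list was 0.66 over the 16 genes and 0.67 over all 23 with no filter, 0.41 without mutant replicate 1 and 1.04 without mutant replicate 2. Over all 10 pathway lists, which share some genes, 0 of 96 tested genes passed at an adjusted p under 0.05 in limma or voom, with 4 at an unadjusted p under 0.05 in limma (6.31% of all genes) and 16 in voom (7.43%).

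**Figure D5:**
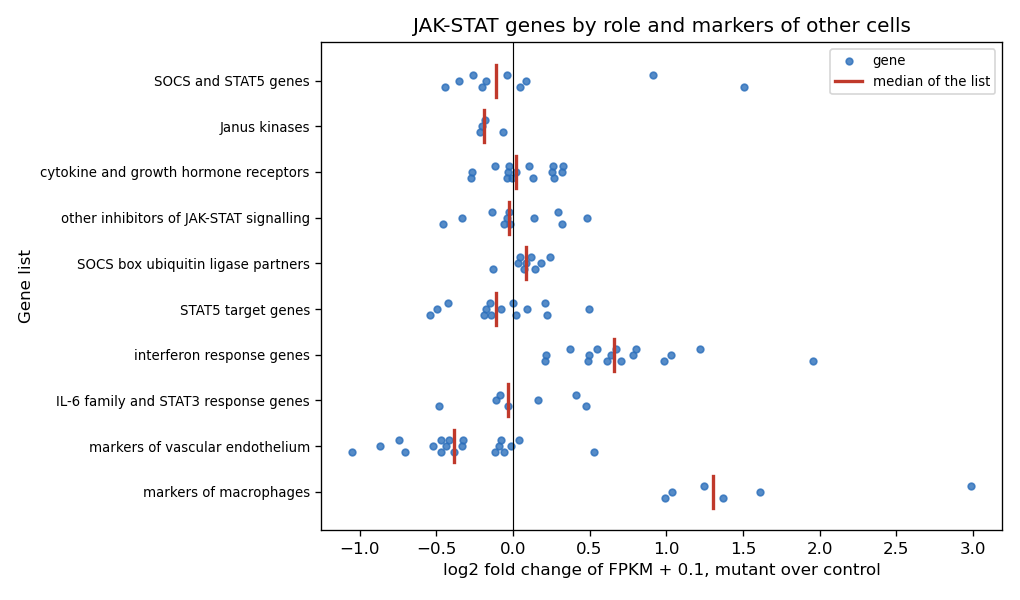
Log2 fold change of each tested gene (points) and the median of its list (red line), for the members, the JAK-STAT genes by role and the markers of vascular endothelium and macrophages. The medians are -0.11 for the members, 0.66 for the interferon list, -0.38 for endothelium and 1.31 for the 6 macrophage markers that passed the filter (0.42 over all 14 with no filter).

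Markers of other cells were read beside *Socs2*. Of 20 endothelial markers, 17 had a lower mean FPKM in mutant lenses, and their summed level was 16.7 and 12.2 FPKM in mutant against 18.9 and 14.9 in control lenses, which overlap. Their median log2 difference was 0.09 in the pair of lower *Xist* level and -0.78 in the other pair. All 14 macrophage markers had a higher mean in mutant lenses, with a summed level of 4.06 and 3.48 FPKM against 1.21 and 0.847. The highest of them was *C1qa*, at 1.02 and 0.638 against 0.445 and 0.261 FPKM, and *Tyrobp* had 16 and 9 reads against 0 and 1. Of the 14, 6 passed the filter, and *C1qb*, *C1qc* and *Tyrobp* did so only through the mutant libraries. The part of both lists in the *Socs2*, *Cish* and interferon differences was not tested. Ciliary and iris markers summed to 16.1 and 17.4 FPKM in mutant and 13.4 and 11.8 in control lenses, with *Optc* the highest and *Rgr* at 0, and their part was not tested. *S100a4*, whose promoter drives the Cre, was at 3.84 and 4.37 FPKM in mutant and 2.91 and 1.21 in control lenses. Pericyte markers (15.8 to 18.5 FPKM in mutant, 17.002 to 17.7 in control), retinal markers (3.20 to 6.25 and 3.63 to 5.03), fibroblast markers (9.68 to 11.8 and 7.73 to 10.2) and red cell markers (17.2 to 25.2 and 21.6 to 34.9, with *Hba-a2* at 0) overlapped between genotypes. Lens epithelial markers summed to 203 and 230 FPKM in mutant and 223 and 227 in control lenses, led by *Foxe3*.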

How the data were processed

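The authors deposited FPKM for 56748 genes in 4 lens libraries, with gene lengths and mm39 positions (build per the submitters' processing notes). Alignment, counting and FPKM were done by the authors' sequencing provider, and strand use in counting is not given in the sources used here. Reads were recovered as FPKM times gene length over the value of 1 read in a library (tolerance 0.01). After genes with a mean under 0.1 FPKM were dropped, 15997 entered a two-sided test in limma 3.58.1 (lmFit, eBayes with trend, R 4.3.3) of log2 values with a pseudocount of 0.1, genotype as the only term, with Benjamini-Hochberg adjustment over all genes tested and a threshold of 0.05. As an alternative, voom was run on the recovered reads with the FPKM denominators as library sizes. The fit was tested on simulated data with large changes, placed only in genes above a floor of mean reads that *Socs1* and *Cish* do not reach. That check therefore does not cover genes with so few reads or small differences. The depth, 18561682 to 18878768 reads, leaves the lowest members with under 30 reads in most libraries.

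The members and lists were chosen with earlier results of these data known. Besides the 10 members, genes were named as the highest of each pathway list and up to 3 with the largest difference among those whose groups did not overlap, with the JAK and other STAT genes, *Igf1* and *Pdgfrb*, the highest and the zero markers, the neighbours of *Socs2* and the 3 nearest patterns. A few genes that this rule names are not reported here. *Socs2* was taken as selected, so no p-value is printed for it and nothing is read from a count that holds it. The reference annotation (GENCODE M21) is of GRCm38, and 2.85% of 52125 genes matched by identifier have the same position. Its positions were used for that comparison only, and its transcripts for lengths and shared words. Promoters were the RefSeq windows. Pseudocount, filter, scaling, trend, covariates, tool and each library were varied.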

Additional observations from a re-analysis of the deposited data

How the results depend on the processing

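With 2 pools per group, few reads on the low members and no record of which mice entered a pool, small differences could not be resolved. *Socs2* kept its direction in every alternative that gave a value. Its mutant libraries both lie above its control libraries, so a changed pseudocount or a left-out library could not have reversed it. *Socs2* was also chosen on this contrast, so nothing is read from the kept direction. Its log2 difference was 0.35 with a pseudocount of 1, 2.41 with 0.01 and 2.54 by voom, and 1.30 to 1.72 with single libraries left out; at a mean FPKM of at least 1 it was not among the genes tested. Members called numbered 0 in all alternatives except voom (1, *Socs2*, from which nothing is read because it was chosen on this contrast). Members whose groups did not overlap numbered 3, against 36.6% of all genes. They numbered 2 with equal totals of recovered reads and 4 with equal totals without crystallins. At a mean FPKM of at least 1, where fewer genes were tested, they were 1 of 6. The count was 7 when only the same direction within both pairs of like *Xist* level was asked. With single libraries left out it was 3 to 9, where an arm of 1 library separates more easily. The share of all genes was not counted under these alternatives, so nothing is read from their counts. Estimates reversed without mutant replicate 1 for *Socs3* (0.0099), *Socs5* (-0.12) and *Stat5b* (0.14), and without control replicate 1 for *Stat5b* (0.043). Their ranges over left-out libraries were -0.41 to 0.0099, -0.12 to 0.22 and -0.22 to 0.14. A lone library was assumed to vary like the other group. Member ranks changed for 0 to 4 members with single libraries left out and for 8 with the length of the longest coding transcript, an alternative added after the data were seen. No promoter (0) matched the motif with the longer spacer among the member windows. Pathway lists gave 0 calls in every alternative.

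Same-numbered libraries did not deviate together (r = -0.0051 across 15997 genes, which are not independent). With 2 pools per group, and *Xist* level crossed between same-numbered libraries, this cannot show whether they share more than a number. Over all genes, 6 calls without a block became 3 with a replicate block and 1 with the covariate for *Xist* level, which is also the crossed pairing. Under the replicate block the *Socs2* difference was 1.51, 0 members were called and 4 members had the same direction in both pairs. The share of all genes with the same direction in both pairs was not counted, so nothing is read from the 4. The comparison of member proteins was not run.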
